A study of Mus musculus with 2 samples.

Results

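The elastic fibre genes described here are 10 genes that encode elastin (Eln), the fibrillins (Fbn1 and Fbn2), the fibulins (Fbln1, Fbln2, Fbln5 and Efemp2, which encodes fibulin-4) and the microfibril partners Emilin1, Mfap2 and Mfap5. They were chosen by name, with earlier results of these data known, and all 10 were found among the 24421 gene symbols of the count table. Sequencing libraries were made from the whole layer of back skin of wild type C57BL6/J mice, with 1 library of skin stretched for 5 days, from an initial 33% strain, by a device glued to the back and 1 library of skin left unstretched for the same 5 days. The mice of the study were 8-week-old females with hairs in telogen, the resting phase of the hair cycle, and strain was increased daily after the device was fixed. Device-attached skin was discarded at harvest, and neither the number of mice behind a library nor a sham device for the control library is given in the sources used here. Since each condition is 1 library, no difference has a replicate check, and no p-value is given.

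Elastic fibres give skin its recoil. Fibroblasts and smooth muscle cells secrete tropoelastin, which is deposited on a scaffold of fibrillin microfibrils with the help of fibulins and is then crosslinked by lysyl oxidases into an insoluble core. Elastin turns over slowly, and most of it is laid down before and soon after birth. The microfibrils also hold latent TGF-beta through its binding proteins, and inherited loss of several of these genes gives lax skin (cutis laxa) or Marfan syndrome.

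Marker genes of the cell types of whole-layer skin were present in both libraries. Levels are given as CPM, the count of a gene scaled to the total of its library. The 5 keratinocyte markers summed to 14088 CPM in control skin and 14914 CPM in stretched skin. The 9 fibroblast markers summed to 42227 and 79555 CPM, and the 5 skeletal muscle markers to 22922 and 13874 CPM. The libraries held 14152379 counts (control) and 11648655 counts (stretched), so that 3 counts, the floor below which no level was read, equal 0.212 and 0.258 CPM.

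All 10 elastic fibre genes were higher in stretched skin, and Eln differed most. Their counts together were 34296 without stretch and 63750 with stretch, or 2423 and 5473 CPM, a log2 fold change of 1.18 (counting interval 1.16 to 1.19). The log2 fold change is the log2 ratio of CPM in stretched over control skin, and its counting interval is the exact 95% Clopper-Pearson interval, which covers counting error only. Over the 10 genes the median log2 fold change was 0.86 (range 0.36 to 1.79), against -0.12 over the 16255 genes with more than 3 counts in at least 1 library, a gap of 0.98. More cells that make elastic fibres and more of this RNA per cell cannot be told apart in bulk skin.

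The interval lay wholly above 0 for 10 of the 10 genes and wholly below 0 for 0. Among all genes with more than 3 counts in at least 1 library, 18.1% had an interval wholly above 0 and 33.5% wholly below. Each of the 10 genes reached 1000 counts when both libraries were added, and among the 5700 genes that did so 23.2% had an interval wholly above 0. At a threshold of 1.5-fold on CPM, 8 of the 10 genes were higher and 0 were lower. Of the 14804 genes that reach 20 counts over both libraries, 10.1% were higher and 13.4% lower by 1.5-fold, and of those with at least 1000 counts 5.91% were higher. The methods of the study filter genes on EV, the product of the FPKM of both samples, and keep those above 10, calling a gene at 2-fold or more, or at 0.5-fold or less. Applied here to FPKM computed from the counts with 1 added to each value, it called Eln and Fbln1 higher and 0 of the 10 genes lower, where 2.61% of the 10908 genes past the EV filter were called higher and 2.43% lower. Without the added 1, Efemp2 was called higher as well. The study used FPKM from Cufflinks and reported more genes higher than the 285 called here, so these calls are not its own. The split of all genes depends on the scaling. With median-of-ratios factors 55.3% of the genes past 1.5-fold were higher, against 42.9% by total counts, and 51.3% of the intervals that left out 0 lay above it, against 35.1%.

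**Figure D1:**
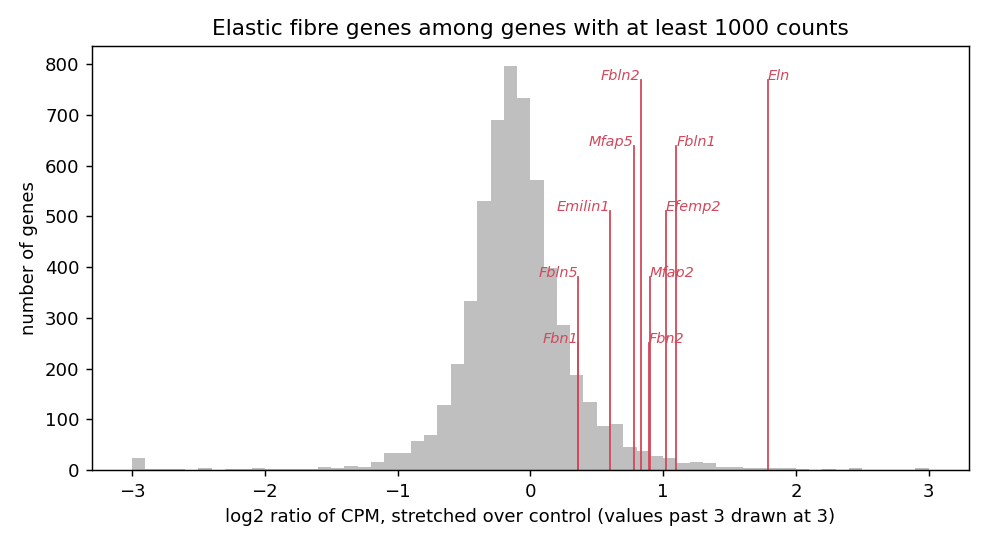
Number of genes (vertical axis) by log2 ratio of CPM in stretched over control skin (horizontal axis, bins of 0.1) for the 5700 genes that reach 1000 counts over both libraries, with the elastic fibre genes as red lines whose heights carry no value. The bulk of genes lies just below 0 (median -0.12), and the 10 red lines lie between 0.36 and 1.79.

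Eln encodes tropoelastin, the monomer of the elastic core. It lies on chromosome 5 of mm10 from 134702593 to 134747323 (minus strand). Eln had 12949 counts without stretch and 36972 with stretch, or 915 and 3174 CPM. The level in stretched skin was 3.47 times that in control skin (interval 3.40 to 3.54), a log2 fold change of 1.79 (1.77 to 1.82), and of the 5700 abundant genes 26 had a larger ratio. By count it was gene 76 of the control library and gene 13 of the stretched library. It was the only elastic fibre gene whose interval did not overlap that of the next in the order of fold changes, which was Fbln1. Eln therefore set much of the sum over the 10 genes. It held 37.8% of their counts without stretch (exact binomial interval 37.2% to 38.3%) and 58.0% in stretched skin (57.6% to 58.4%). The other 9 genes together went from 1508 to 2299 CPM, a log2 fold change of 0.61 (0.58 to 0.63), with a median over them of 0.83.

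**Figure D2:**
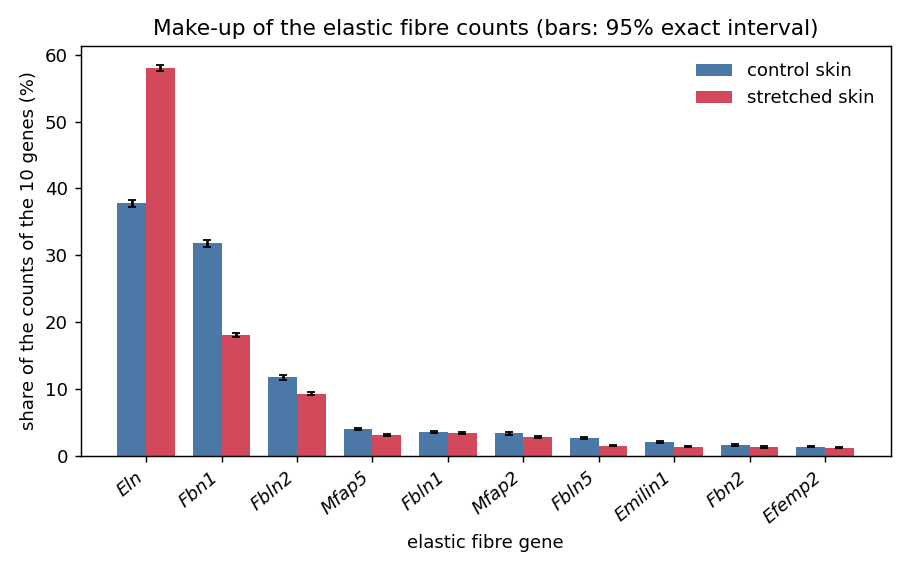
Share of the summed counts of the 10 elastic fibre genes held by each gene (vertical axis, percent) in control skin (blue) and stretched skin (red), with 95% exact binomial intervals. Eln goes from 37.8% to 58.0% and Fbn1 from 31.8% to 18.0%.

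The fibrillins form the microfibrils. Fbn1, the main fibrillin of adult tissue, lies on chromosome 2 of mm10 from 125300594 to 125507993 (minus strand) and had 10898 counts without stretch and 11486 with stretch. At 770 and 986 CPM its log2 fold change was 0.36 (interval 0.32 to 0.39), the smallest of the 10 genes together with that of Fbln5. Its share of the elastic fibre counts went from 31.8% to 18.0%. Fbn2, which is best known from developing tissue, lies on chromosome 18 of mm10 from 58008623 to 58210487 (minus strand). It was the lowest of the 10 genes per length and had 558 counts without stretch and 850 with stretch, a log2 fold change of 0.89 (0.73 to 1.04). The 2 fibrillin genes thus did not move by the same amount. The ratio of Fbn2 to Fbn1 counts went from 0.0512 to 0.0740, a difference of 0.53 on the log2 scale (exact conditional interval 0.37 to 0.69), and such a ratio within a library does not depend on how the libraries are scaled.

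Mfap2 and Mfap5 encode small glycoproteins that bind fibrillin microfibrils. Mfap2, on chromosome 4 of mm10 from 141010418 to 141015984 (plus strand), had 1152 counts without stretch and 1775 with stretch, a log2 fold change of 0.90 (interval 0.80 to 1.01). Mfap5, on chromosome 6 of mm10 from 122505845 to 122529290 (plus strand), had 1382 and 1960 counts, a log2 fold change of 0.78 (0.68 to 0.89). For this pair no difference was detectable at this depth, since the log2 fold change of Mfap5 minus that of Mfap2 was -0.12 with an interval from -0.27 to 0.03. Emilin1 encodes a glycoprotein at the interface of elastin and microfibrils that also holds back the processing of TGF-beta. It lies on chromosome 5 of mm10 from 30913402 to 30921277 (plus strand) and had 719 counts without stretch and 894 with stretch, a log2 fold change of 0.60 (0.45 to 0.74), just past the threshold of 1.5-fold (ratio 1.51, interval 1.37 to 1.67).

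The fibulins bridge elastin, microfibrils and cells, and their log2 fold changes ranged from 0.36 to 1.10. Fbln1, found in elastic fibres and basement membranes, lies on chromosome 15 of mm10 from 85205949 to 85286535 (plus strand) and had 1217 counts without stretch and 2153 with stretch (log2 fold change 1.10, interval 1.0 to 1.21). Fbln2, on chromosome 6 of mm10 from 91212455 to 91272540 (plus strand), was the highest fibulin gene per length and had 4030 and 5902 counts (0.83, interval 0.77 to 0.89). The ratio of Fbln2 to Fbln1 counts went from 3.31 to 2.74 with stretch, a log2 difference of -0.27 (-0.39 to -0.15).

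Efemp2 and Fbln5 encode the short fibulins that elastic fibre assembly depends on. Fibulin-4, the product of Efemp2, brings lysyl oxidase to tropoelastin, and fibulin-5 tethers elastin to microfibrils and integrins. Efemp2, on chromosome 19 of mm10 from 5473954 to 5482517 (plus strand), had 472 counts without stretch and 787 with stretch (log2 fold change 1.02, interval 0.85 to 1.19). Fbln5, on chromosome 12 of mm10 from 101746565 to 101819055 (minus strand), had 919 and 971 counts (0.36, interval 0.23 to 0.49). The pair thus moved apart. The ratio of Efemp2 to Fbln5 counts went from 0.514 to 0.811 with stretch, a log2 difference of 0.66 (0.44 to 0.87). On CPM the ratio of Efemp2 was 2.03, but with 1 added to each FPKM its log2 fold change was 0.94, and it was not called by EV and fold change.

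Sequence upstream of the fibulin genes is shown here because these genes differed among themselves. RefSeq windows on GRCm38.p6, the assembly of mm10, were matched for 7 of the 10 genes and 12 start sites, and those of Eln, Fbn2 and Mfap5 are not shown. The 3 windows that held no base of an annotated exon of their gene belong to Fbln1 (chr15:85205699-85205948, plus strand), Fbln5 (chr12:101819120-101819369, minus strand) and Efemp2 (chr19:5473696-5473945, plus strand). Each is the 250 bases before a start site, read from 5′ to 3′ on the strand of the gene, with capitals on any match to the motifs searched.
Fbln1: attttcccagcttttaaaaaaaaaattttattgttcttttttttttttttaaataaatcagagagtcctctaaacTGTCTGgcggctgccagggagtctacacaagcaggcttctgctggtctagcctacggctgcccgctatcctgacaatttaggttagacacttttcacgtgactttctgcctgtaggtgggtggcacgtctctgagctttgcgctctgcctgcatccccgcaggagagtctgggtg
Fbln5: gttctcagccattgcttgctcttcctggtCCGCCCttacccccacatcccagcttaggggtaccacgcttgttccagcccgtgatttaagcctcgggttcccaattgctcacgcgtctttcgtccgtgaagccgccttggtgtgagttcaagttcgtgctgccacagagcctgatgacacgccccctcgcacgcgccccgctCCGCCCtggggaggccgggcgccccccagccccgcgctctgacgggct
Efemp2: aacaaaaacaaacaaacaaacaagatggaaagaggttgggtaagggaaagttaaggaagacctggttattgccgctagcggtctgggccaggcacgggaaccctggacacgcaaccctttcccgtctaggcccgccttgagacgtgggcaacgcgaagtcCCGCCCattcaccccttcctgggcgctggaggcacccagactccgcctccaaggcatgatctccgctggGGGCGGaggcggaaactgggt

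The motifs, searched on both strands and with overlapping matches counted, were the GC box GGGCGG, the TATA box TATAAA, the AP-1 site TGANTCA, the TEAD site GGAATG and the SMAD site CAGACA. In the windows shown, Fbln5 and Efemp2 each held 2 GC boxes and Fbln1 held 1 SMAD site. Of the 12 windows of elastic fibre genes, 8 held a GC box, 5 a SMAD site, 1 a TEAD site and 0 a TATA box or an AP-1 site. Among all 32851 windows of this length the shares were 32.7% for the GC box, 17.1% for the SMAD site, 12.6% for the TEAD site, 12.4% for the TATA box and 6.75% for the AP-1 site. Some windows of 1 gene overlap and are not independent, and a match is a description of letters and not of binding. The 3 windows shown had GC contents of 46.4% (Fbln1), 65.2% (Fbln5) and 59.2% (Efemp2).

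Levels of different genes were compared per length as FPKM (CPM divided by the length of the exons in kilobases), with Poisson intervals of the count. In control skin Eln was highest at 113 FPKM (111 to 115), followed by Mfap2 at 67.2 (63.4 to 71.2) and Fbn1 at 63.5 (62.3 to 64.7), whose intervals overlapped. Below them lay Fbln2 (44.7 FPKM), Mfap5 (27.2) and Fbln1 (19.7). Emilin1 (10.3 FPKM), Fbln5 (9.40) and Efemp2 (8.80) followed, and neighbours among these 3 overlapped, with Fbn2 last at 2.98 FPKM. In stretched skin the order was nearly the same. Eln stood at 392 FPKM (388 to 396) and Mfap2 at 126 (120 to 132). Fbn1 (81.3 FPKM, 79.8 to 82.8) and Fbln2 (79.5, 77.5 to 81.6) overlapped there, and Mfap5 (46.9) and Fbln1 (42.3) followed. Efemp2 at 17.8 FPKM (16.6 to 19.1) was above Emilin1 at 15.6 (14.5 to 16.6) and Fbln5 at 12.1 (11.3 to 12.8), where it had been the lowest of these 3 in control skin, and Fbn2 was again last at 5.52 FPKM. The level of Eln depends on the gene model, since with the length of its longest transcript (3853 bases) in place of all its exons (8098 bases) it was 238 FPKM without stretch and 824 with stretch. With longest transcripts the intervals of Mfap2 and Fbn1 in control skin no longer overlapped, Fbln2 stood above Fbn1 in stretched skin, and Efemp2 stood above Fbln5 in control skin, with overlapping intervals.

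**Figure D3:**
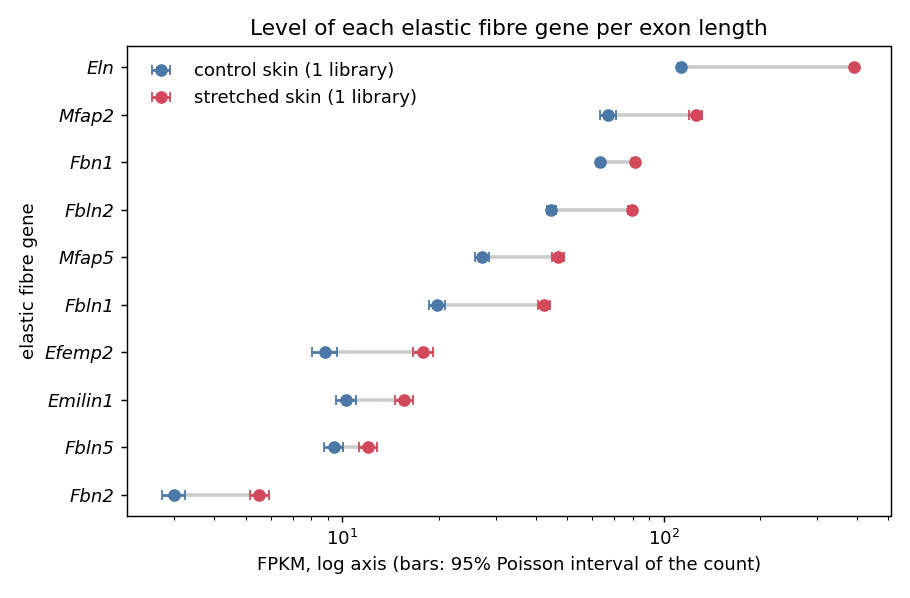
FPKM of each elastic fibre gene (horizontal log axis) in control skin (blue) and stretched skin (red), 1 library each, with 95% Poisson intervals of the count and a grey line joining both values. All 10 genes lie further right in stretched skin, with the longest line for Eln (113 to 392 FPKM) and the shortest for Fbn1 and Fbln5.

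The uniqueness of the genes for reads of 76 bases was checked on the GENCODE M21 transcripts. For Fbln1, Fbln2, Fbln5, Emilin1, Mfap2 and Mfap5, 0% of the 76-base stretches occurred in another gene. Fbn1 shared 19.6% of its stretches with the antisense gene Gm9913, Eln shared 2.38% with Gm30003 and Fbn2 shared 0.411% with Gm26507, and none of these 3 antisense genes is a row of the count table. Efemp2 shared 2.19% with Mus81, which overlaps it on the other strand and had 309 counts without stretch and 228 with stretch. No strand setting is given, so reads from these genes and their antisense partners cannot be told apart in the shared stretches. No stretch was shared between 2 of the 10 genes.

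The other genes of the pathway were taken as 8 lists of 56 genes, of which 53 exceeded 3 counts in a library. The median over these was a log2 fold change of 0.36, with 34 intervals wholly above 0, 6 wholly below and 13 that included 0, and by 1.5-fold 19 were higher and 2 lower. By total counts the shares over all genes were 18.1% above and 33.5% below by interval, and 10.1% higher and 13.4% lower by 1.5-fold. These shares also stand beside the counts of each pathway list and marker list below. With TMM scaling 36 intervals of the 53 pathway genes lay above 0 and 3 below, beside 3924 and 3914 over all genes. By 1.5-fold 20 genes were then higher and 0 lower, beside 1816 and 1517 over all genes. Hmcn2 was not analysed here. The lysyl oxidases, which crosslink elastin and collagen, were higher as a whole list. All 5 had intervals above 0, with a median of 0.87. Lox was the most abundant of them by count in stretched skin and over both libraries. It had 2914 counts without stretch and 8730 with stretch, a log2 fold change of 1.86 (interval 1.80 to 1.92). Loxl1 (0.87), Loxl3 (0.85) and Loxl4 (0.92) were also past 1.5-fold, and Loxl2, at 0.42, was not. In control skin Loxl2 had more counts than Lox (3187). The ratio of Eln to Lox counts went from 4.44 to 4.24 with stretch, a log2 difference of -0.07 (-0.14 to -0.00). This nearly constant count ratio holds for Lox alone, since each of the other lysyl oxidases differed less than Eln. The 5 together had a log2 fold change of 1.15 (1.12 to 1.19), against 1.79 for Eln.

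Of the 10 measured relatives of the elastic fibre genes 5 intervals lay above 0 and 2 below, around a median of 0.20. Efemp1, which encodes fibulin-3, was one of the 2 below (-0.18, interval -0.30 to -0.07), and with TMM scaling its interval included 0 (-0.08, interval -0.19 to 0.03). Mfap4, which encodes a microfibril-associated protein that binds elastin, had 3451 counts without stretch and 8744 with stretch (log2 fold change 1.62, interval 1.57 to 1.68). Mmrn1, an endothelial and platelet relative of the emilins, was the other gene past 1.5-fold, at 0.63. Fbln7, a further fibulin gene with 87 and 107 counts, was at 0.58 (interval 0.16 to 1.0) by total counts, short of 1.5-fold, and past it at 0.68 with TMM scaling. Mfap4 was the only gene of this list near Eln in size, and the ratio of Eln to Mfap4 counts changed by 0.17 (0.11 to 0.24) on the log2 scale.

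The latent TGF-beta binding proteins sit on microfibrils. Ltbp2 had 438 counts without stretch and 927 with stretch (log2 fold change 1.36, interval 1.20 to 1.53), and it was the only one of the 4 past 1.5-fold. Ltbp4, the most abundant, had 4004 and 2957 counts (-0.16, interval -0.23 to -0.09), or -0.05 with TMM scaling, where the interval included 0 (-0.12 to 0.02). Of the 3 ligands Tgfb1 (0.68) and Tgfb3 (0.65, the most abundant) were past 1.5-fold, and Tgfb2 was not (0.10, interval -0.16 to 0.36). The ligand and binding protein genes therefore did not move as 1 block.

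Among the 8 microfibril-associated ADAMTS family genes the median was 0.16. Adamtsl2, whose product binds fibrillin and latent TGF-beta binding protein, had 118 counts without stretch and 381 with stretch (1.97, interval 1.67 to 2.28). Adamts6 (0.62, with 42 and 53 counts and an interval from 0.00 to 1.24) was also past 1.5-fold. Adamtsl3, with 74 and 39 counts, was past 1.5-fold on the lower side (-0.64, interval -1.24 to -0.06). With TMM scaling it was not past 1.5-fold, and its interval included 0 (-0.54, interval -1.14 to 0.04). Adamtsl5, the most abundant of them, was at 0.15.

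Of the 11 proteases that can degrade elastin 9 were measured, and Mmp7, listed at 0 in both libraries, and Elane, the neutrophil elastase with 2 counts in each, had no fold change. Among those measured 7 intervals lay above 0 and 0 below, with a median of 0.70. Ctss, a cathepsin of macrophages and antigen-presenting cells, had 680 counts without stretch and 2010 with stretch (1.84, interval 1.72 to 1.97). Ctsk had 1542 and 3181 counts (1.33, interval 1.24 to 1.41), and Mmp12, the macrophage elastase, had 17 and 74 (2.40, interval 1.63 to 3.26). Mmp2 (0.72), the most abundant by count, and Mmp14 (0.70), its activator, were past 1.5-fold as well. These 5 were the proteases past 1.5-fold, and the intervals of 2 others, Prtn3 and Ctsg, included 0.

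Of the 8 receptor genes 6 had intervals above 0 and 1 below, with a median of 0.33. Itga5 (0.92) and Itga9 (0.64) were past 1.5-fold, and Itgb1, the shared beta chain and the most abundant of the list, was at 0.35 (interval 0.30 to 0.40). The 6 other genes mutated in cutis laxa or related disorders, which act in the secretory pathway, copper transport and proline synthesis, had a median of 0.13. Slc2a10 was past 1.5-fold upward (0.98, interval 0.65 to 1.32) and Atp7a, the copper transporter that loads lysyl oxidases, downward with 736 and 378 counts (-0.68, interval -0.86 to -0.50). With TMM scaling Atp7a stayed below 0 but was not past 1.5-fold (-0.58, interval -0.76 to -0.40). Atp6v0a2, the most abundant, was at -0.03 (interval -0.14 to 0.08), or 0.07 with TMM scaling, which turns its direction.

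**Figure D4:**
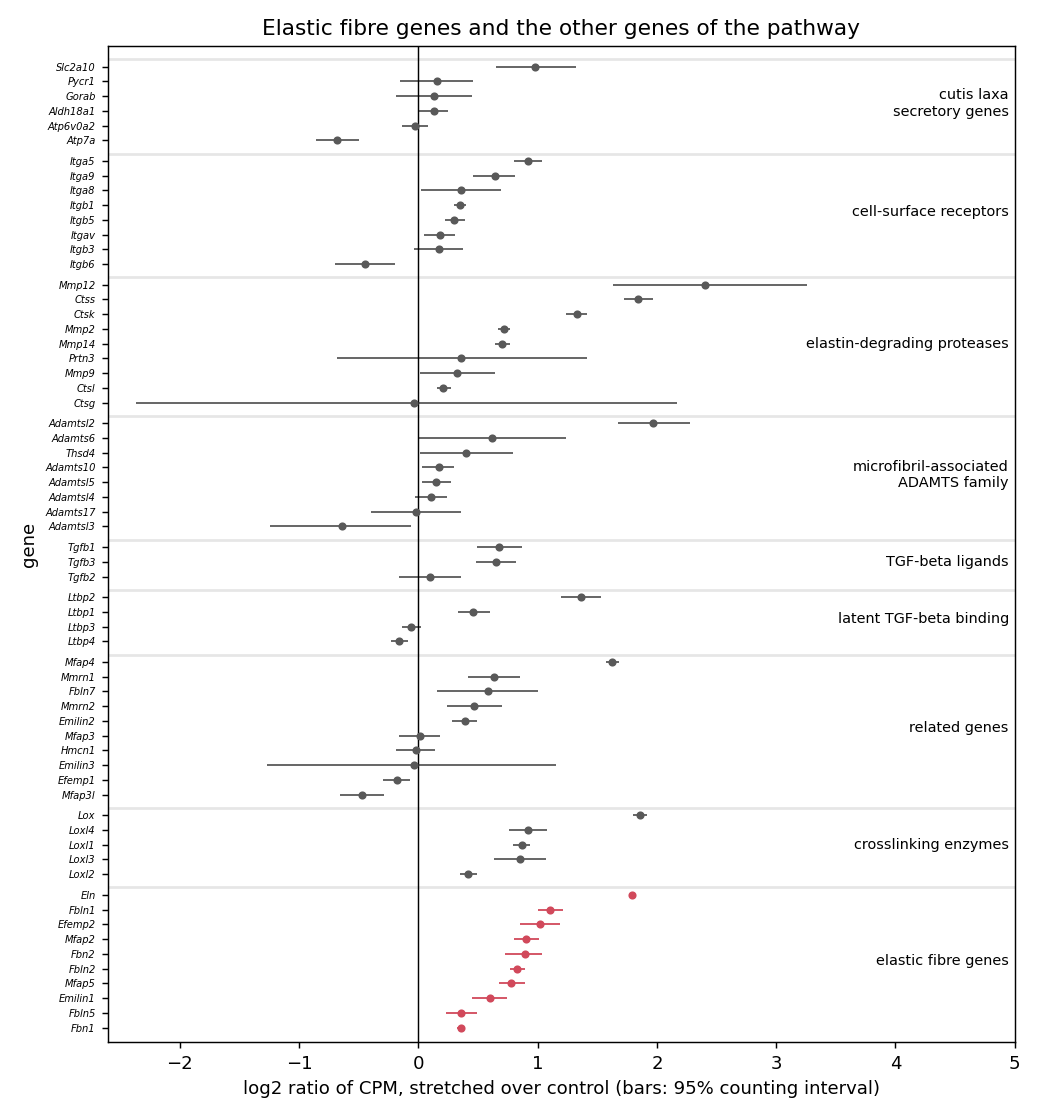
Log2 ratio of CPM in stretched over control skin (horizontal axis) with 95% counting intervals for the 10 elastic fibre genes (red) and the 53 measured genes of the other pathway lists (grey), 1 gene a row. All red points lie right of 0, Lox, Ctss, Adamtsl2 and Mmp12 lie past Eln, and the grey lists reach from -0.68 to 2.40.

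Lists of cell type markers differed in direction. All 9 fibroblast markers had intervals above 0, with a median log2 fold change of 0.87, but they fell into separate groups. Col1a1 (1.0), Col1a2 (0.87), Col3a1 (0.96), Vim (1.18) and Pdgfrb (0.93) were past 1.5-fold, whereas Pdgfra (0.18), Dcn (0.06), Lum (0.25) and Dpt (0.22) were not. Of the 10 elastic fibre genes 3 were above Col1a1 and 5 above Col1a2, and all 10 were above the median of 0.24 of the 6 fibroblast markers that are not collagens. The ratio of Eln to Col1a1 counts went from 0.0770 to 0.133 with stretch, a log2 difference of 0.79 (0.76 to 0.82), while that of Fbn1 to Col1a1 changed by -0.65 (-0.69 to -0.61). Fbn1 stayed closer to Pdgfra, with a log2 difference of 0.18 (0.07 to 0.28). The summed level of the 9 fibroblast markers was 42227 and 79555 CPM (log2 fold change 0.91), and that of the 6 without the collagens was 3281 and 4628 CPM (0.50). The part of fibroblast number in these results was not tested.

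Markers of smooth muscle, which also makes elastin, and of pericytes did not move as a list. Of 6 genes 3 intervals lay above 0 and 2 below, the median was 0.11 and the summed levels were 777 and 792 CPM. The 5 macrophage markers were all above 0 (median 1.47, summed 301 and 684 CPM), beside which stand the higher Ctss and Mmp12. The 4 endothelial markers had 2 intervals above 0 and 1 below (median 0.40, summed 152 and 197 CPM), and the 3 Schwann cell markers had 2 above 0 (median 0.25, summed 264 and 303 CPM). All 4 adipocyte markers were below 0 (median -0.80, summed 379 and 221 CPM), and all 5 skeletal muscle markers were below 0 (median -0.25). Myh4, a fast myosin heavy chain, had 91029 and 3156 counts (-4.57) and Ckm, the muscle creatine kinase, was at -1.05. The other 3 muscle markers lay between -0.25 and -0.07 and summed to 12899 and 11863 CPM. With TMM scaling Acta1, one of the muscle markers, turned from -0.07 to 0.03. The part of macrophages, fat and muscle in these results was not tested. The 5 keratinocyte markers had 3 intervals above 0 and 1 below (median 0.02). Of the 3 chondrocyte markers 0 intervals lay above 0 and 1 below (median -0.13, summed 17.9 and 9.27 CPM), with 8 and 6 counts of Col2a1, and of the 3 tendon markers 2 lay above 0 and 1 below (median 1.18, summed 45.7 and 51.1 CPM).

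**Figure D5:**
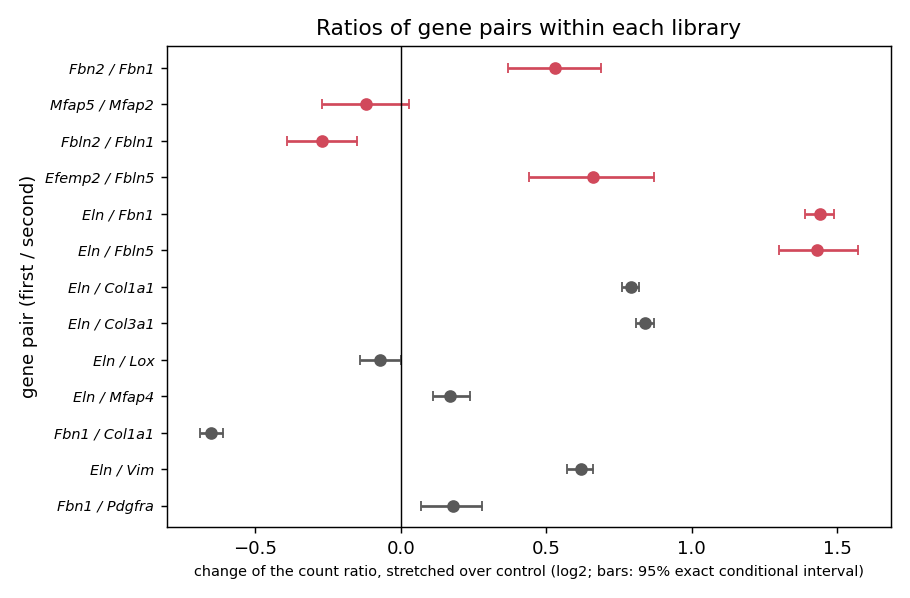
Change of the ratio of counts between 2 genes from control to stretched skin (horizontal axis, log2) with 95% exact conditional intervals, for pairs of elastic fibre genes (red) and pairs with another gene (grey), the first gene named over the second. Eln lies 1.44 above Fbn1 and 1.43 above Fbln5, Efemp2 lies 0.66 above Fbln5, the interval of Mfap5 over Mfap2 includes 0 and that of Eln over Lox ends at -0.00.

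Against the other elastic fibre genes Eln moved most. The ratio of Eln to Fbn1 counts went from 1.19 to 3.22 with stretch, a log2 difference of 1.44 (1.39 to 1.49), and that of Eln to Fbln5 went from 14.1 to 38.1, a difference of 1.43 (1.30 to 1.57).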

How the data were processed

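The authors filtered single-end reads on base quality with the FASTX-Toolkit and aligned them to mm10 with TopHat2. The deposited table holds raw read counts for 24421 gene symbols, not normalized. The program that counted them, its annotation and its handling of strand are not given in the sources used here. Exon lengths came from GENCODE M21, with 23384 symbols matched by name and 670 by synonym, and 367 had none. From the counts, CPM, FPKM (union of exons), ratios with exact 95% intervals and ratios of gene pairs were computed. Intervals cover counting error only, and they are too narrow even for that where reads are not independent molecules. With 1 library in each group no test was run. The 10 elastic fibre genes and all lists were chosen with earlier results of these data known. The genes named are all 10 and the pathway genes past 1.5-fold with at least 20 counts. The gene of each pathway list with the most counts over both libraries is named too. Single marker genes, Loxl2, Efemp1, Fbln7, Tgfb2, Mus81, Mmp7, Elane, Prtn3, Ctsg and Hmcn2 fall outside this rule and were named after their values were seen. Pairs with genes outside the 10, the set of genes with at least 1000 counts totals without collagen and elastic fibre genes, pathway counts under other scalings and muscle markers without Myh4 and Ckm were added after seeing the data. Alternatives were TMM and upper-quartile factors (edgeR 4.0.16), median-of-ratios factors (DESeq2 1.42.0), totals lacking the top 50 genes by count, pseudocounts and EV thresholds. The computation of calls and intervals was checked on simulated counts with known fold changes. Python 3.11.15, scipy 1.17.1 and R 4.3.3 were used.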

Additional observations from a re-analysis of the deposited data

How the results depend on the processing

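Scaling shifts every log2 fold change by the same amount, 0.10 (TMM), 0.11 (median of ratios), 0.10 (upper quartile) and 0.06 (totals lacking the top 50 genes by count). Under these, with 1 CPM added and with totals without the collagen and elastic fibre genes, none of the 60 recomputed log2 fold changes of the 10 genes changed sign, and 21 moved past their counting interval. Eln ranged from 1.79 to 1.91, Fbn1 from 0.36 to 0.47 and Fbln5 from 0.36 to 0.47. The median over the 10 genes was 0.96 with TMM, 0.97 with median of ratios and 0.96 with upper quartile. By EV and 2-fold change 4 genes were called higher with median of ratios (Eln, Fbln1, Efemp2 and Mfap2). With TMM, upper quartile, totals lacking the top 50 genes and no pseudocount 3 were called (Eln, Fbln1 and Efemp2). Over all genes this rule called 285 higher by total counts and 336 with median of ratios. It called 330 with TMM, 329 with upper quartile and 307 with totals lacking the top 50 genes. With any of these scalings 8 of the 10 genes stayed 1.5-fold or more higher. The background by 1.5-fold and by interval moved more. With median of ratios 1845 of all genes were higher and 1490 lower by 1.5-fold (55.3% higher, against 42.9% with total counts). Under the same scaling 4012 intervals lay above 0 and 3811 below (51.3%, against 35.1%). Of the other pathway genes, 2 were 1.5-fold or more lower by total counts, against 0 with TMM, median of ratios or upper quartile and 1 (Atp7a) with totals lacking the top 50 genes, and intervals below 0 went from 6 to 3 in the first 3 of these. No paired analysis was possible because each condition has a single library, and for the same reason leaving out a library was not run. Depth limits the pathway genes with few counts, such as Mmp12, Adamts6, Adamtsl3 and Ctsg.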

Other observations

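Genes of tendon and cartilage, connective tissues outside the skin, did not move together. The tendon transcription factors Scx and Mkx were higher in stretched skin, Scx with 104 counts without stretch and 212 with stretch (log2 fold change 1.31, counting interval 0.96 to 1.66) and Mkx with 61 and 114 (1.18, interval 0.72 to 1.66). Tnmd, a membrane protein of mature tendon, had 482 and 269 counts (-0.56, interval -0.78 to -0.34). Acan, the large aggregating proteoglycan of cartilage, had 234 and 89 counts (-1.11, interval -1.48 to -0.76). The intervals of the other 2 cartilage markers included 0, with 8 and 6 counts of Col2a1 (-0.13) and 11 and 13 counts of Comp (0.52, interval -0.75 to 1.82).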
